A study of Rattus norvegicus with 4 samples.

Results

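Barrier-type endothelium is the lining of ganglion vessels that carries the transporters of the blood-brain and blood-nerve barriers. Here it was taken as the endothelial cells with UMIs (unique molecular identifiers, each a counted molecule) of the transporters Slco1a4, Slco1c1 and Abcg2. A cell was endothelial when Flt1, Kdr, Cd93, Emcn and Tm4sf1 together held at least 15 of 10,000 UMIs and the neuronal genes Snap25, Uchl1, Tubb3 and Stmn2 together held under 20. Members were chosen by these measured UMIs: a member needed 3 or more over the 3 transporters. The rule found 2527 members among 3364 endothelial cells and 46679 retained cells, of 49168 barcodes in all, and left 837 endothelial cells low in these transporters (called other endothelial cells below).

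The cells came from dissociated dorsal root ganglia, which hold the bodies of sensory neurons, of male Sprague-Dawley rats that the design text calls wild type and naive. The study compared a Sham with a CPIP group, on the ipsilateral side at L4-L6; CPIP is not spelled out in the labels and usually means chronic post-ischaemia pain. Each group had 2 libraries, each a pool of 3 rats, so the p-values below measure the spread between pools. The labels used here give neither the age of the rats nor the time after the procedure, and no deletion, transgene or drug.

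In barrier vessels, endothelial cells are sealed by tight junctions, let little through by vesicles, and carry what the tissue needs on named transporters while efflux pumps return foreign compounds to the blood. Wnt and beta-catenin signals maintain this state in the brain. The ganglion's cell body region is known for vessels that are leakier than those of the nerve, so barrier genes there are of interest beside genes of permeable vessels such as Plvap.

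The Sham libraries held 664 and 659 members and the CPIP libraries 624 and 580. Their summed UMIs ran from 2439146 in CPIP 2 to 2754553 in Sham 2, with median UMIs per cell between 3593.5 and 3756. Other endothelial cells were shallower, with medians between 1108 and 1261 UMIs, and a rule that counts UMIs favours deep cells. Among retained barcodes, 17 sequences occurred in more than 1 library, and 2 members carried such a barcode.

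The 12 genes of the rule chose the cells, so their levels are a description only. Slco1a4, an organic anion carrier, stood at 1745, 2151, 1985 and 1650 CPM (counts scaled to the library's sum over the cells described) in the libraries Sham 1, Sham 2, CPIP 1, CPIP 2, and 97.3% of members had a UMI of it. Abcg2, a drug efflux pump, stood at 1877, 2407, 2533 and 2426 CPM in the same order, with a UMI in 97.9% of members. Slco1c1, the thyroxine carrier of brain endothelium, was lower, at 420, 362, 268 and 252 CPM, and 35.3% of members had a UMI of it. The transporter sum therefore rested mostly on Slco1a4 and Abcg2. UMIs of 1, 2 and 3 of the transporters were found in 80, 1593 and 854 members, and 157 members reached 3 UMIs only as a sum over genes.

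Near the threshold the sets resembled each other in depth. The 134 members with exactly 3 transporter UMIs had a median of 1290.5 UMIs, and the 119 cells with 2 had a median of 1236. Their endothelial rule genes summed to 80.1 and 77.7 of 10,000 UMIs. The 543 cells with 0 transporter UMIs differed more, at 46.4 of 10,000 for the endothelial genes and a median of 56.5 of 10,000 for markers of smooth muscle, Schwann cells, macrophages, fibroblasts and erythrocytes. A typical member lay well inside: the median was 16 transporter UMIs, and 78.2% had at least 8.

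The endothelial label held in genes outside the rule. The 13 general endothelial markers measured, which leave out the genes of the rule, summed to between 4320 and 4844 CPM over the libraries, with none at 0, against 21.6 to 28.1 CPM in neurons. The tight junction gene Cldn5 was not analysed here. Markers of other cells were present in part. Satellite glia markers summed to 3614, 3630, 3432 and 3525 CPM, of which 72.6% was Glul, with 3 of 12 under 10 CPM. Macrophage markers summed to 20.9, 21.4, 72.4 and 24.6 CPM with 2 of 12 (C1qb and Cd163) at 0, and smooth muscle markers to 534 to 854 CPM with 3 of 8 (Cnn1, Des and Lmod1) under 10 CPM. Lymphatic markers held little beside Pdpn, with 6 of 7 under 10 CPM, among them Prox1 and Flt4. Schwann cell markers varied between libraries, at 814, 335, 1147 and 644 CPM with 5 of 9 under 10 CPM, and erythrocyte markers varied more, at 1074, 221, 67.7 and 1463 CPM.

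Compared with the other endothelial cells, members held several-fold more RNA of the brain-type glucose, amino acid, lipid and metal carriers, of the Wnt targets Apcdd1 and Lef1, and of the efflux pump Abcb1a. Since the sets were drawn by transporter UMIs in the same cells, the counts below describe how the sets differ and are not independent evidence of a barrier state. In edgeR's quasi-likelihood test with each library as a block, at a Benjamini-Hochberg adjusted p under 0.05, 1189 of 8707 genes were higher in members (13.7%) and 1404 lower (16.1%), with a median log2 difference of -0.01 over all genes. Levels in this comparison are CPM scaled over both sets.

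**Figure D1:**
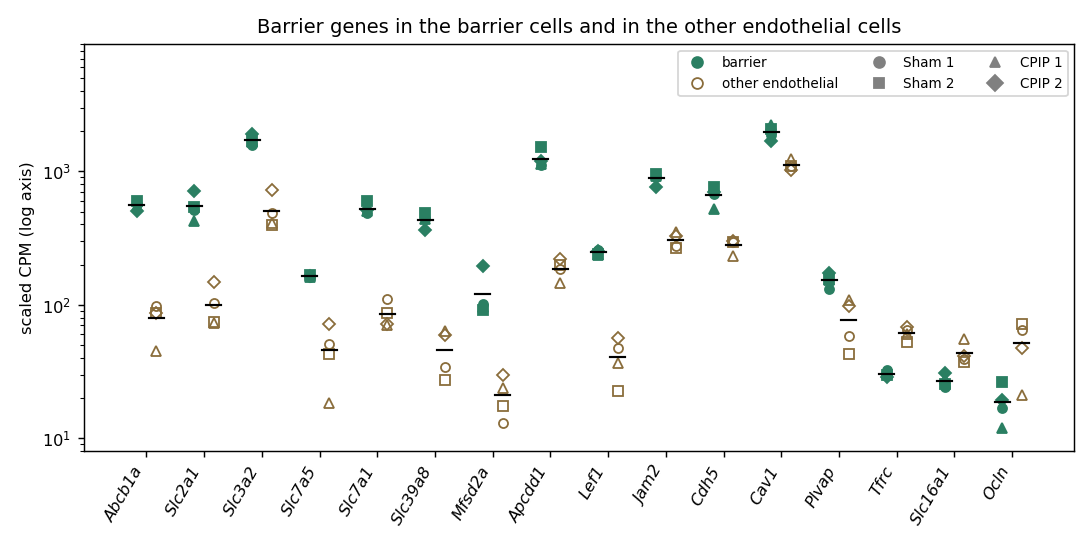
Scaled CPM (log axis) of 16 barrier-related genes in the members (filled) and the other endothelial cells (open), 1 point per library, with the mean as a bar. Abcb1a, Slc2a1, Slc39a8, Apcdd1 and Lef1 were higher in members in 4 of 4 libraries, while Tfrc, Slc16a1 and Ocln were lower.

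Of the efflux pumps, Abcb1a, which encodes P-glycoprotein, stood at 574, 598, 547 and 506 CPM in members and at 98.0, 87.4, 44.7 and 86.2 CPM in other endothelial cells, with no overlap (log2 difference 2.81, SE 0.15). Of the 7 efflux genes tested, 3 were called higher and 1 lower, beside 13.7% and 16.1% of all genes, with a median of -0.04. The cholesterol exporter Abca1 was the 1 lower, at 5.81 to 11.5 CPM against 17.5 to 29.4 CPM (log2 difference -1.60). Efflux genes thus did not differ as a block.

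Of the carriers into the tissue, 11 of 24 were called higher and 6 lower, beside 13.7% and 16.1% of all genes, with a median of 0.45. Slc2a1, the glucose carrier GLUT1, held 511, 542, 422 and 707 CPM in members and 103, 74.9, 73.7 and 149 CPM in the others (log2 difference 2.46, SE 0.13). The zinc and manganese carrier Slc39a8 held 441, 484, 440 and 364 CPM against 34.3, 27.5, 63.2 and 59.5 CPM (log2 difference 3.28, SE 0.19). Every member value lay above every value of the other cells for both genes. Mfsd2a, the carrier of lysophospholipids with omega-3 fatty acids, stood at 102, 91.0, 95.6 and 197 CPM against 13.1 to 29.7 CPM. Slc7a1, a cationic amino acid carrier, averaged 525 against 85.2 CPM, and the large neutral amino acid pair Slc7a5 and Slc3a2 averaged 163 against 45.7 and 1711 against 503 CPM. Not all carriers of brain endothelium followed. The lactate carrier Slc16a1 averaged 27.0 CPM in members and 43.4 in the others (log2 difference -0.68), and the transferrin receptor Tfrc 30.5 against 61.7 CPM.

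Shares of cells with a UMI gave the same order at equal depth. Each cell was thinned to 2000 UMIs, which left out 143 to 162 members and 128 to 171 other endothelial cells per library, and neurons served as a cell type that should lack most of these genes. Abcb1a was then found in 59.3% to 64.7% of members, 10.4% to 17.0% of other endothelial cells and at most 0.6% of neurons. Slc39a8 was found in medians over libraries of 50.0%, 4.21% and 0.5%, and Mfsd2a in 17.0%, 0.667% and 1.1%, where the share in other endothelial cells rests on 46 to 75 cells per library and reached 6.38% in CPIP 2. Slc7a5 was found in 24.0%, 5.5% and 4.6%. Slc16a1 was found in 4.84% of members and 8.65% of other endothelial cells, both below the 19.9% in neurons. Without thinning the median shares in members and other endothelial cells were 76.3% and 11.9% for Abcb1a, 64.0% and 7.89% for Slc39a8, 26.4% and 3.37% for Mfsd2a (1.37% in neurons), 37.6% and 8.77% for Slc7a5, and 9.28% and 7.12% for Slc16a1. For Slc16a1 the order without thinning was the reverse of that at equal depth. Median depths of the neurons ran from 3713.5 to 4596 UMIs.

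Genes of the Wnt pathway differed too, where 13.7% of all genes were called higher in members and 16.1% lower. Apcdd1, a Wnt target and inhibitor, held 1119, 1527, 1128 and 1196 CPM in members against 184, 197, 145 and 220 CPM (log2 difference 2.73, SE 0.12). Lef1, a transcription factor of the pathway, held 256, 242, 238 and 253 CPM against 47.3, 22.5, 36.8 and 56.5 CPM (log2 difference 2.61, SE 0.17). The members' 4 values of Lef1 lay close together. Of 24 tested genes of this list, 13 were called higher, among them Tcf7 and Sox18 (log2 differences 1.77 and 1.88), and 4 lower, with a median of 0.79. In the list of VEGF and angiopoietin signalling 13 of 17 were called higher and 1 lower, led in level by Nrp1, a VEGF co-receptor, at 1059 against 356 CPM.

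Junction and vesicle genes were mixed. Of 15 junction genes, 10 were called higher and 1 lower, beside 13.7% and 16.1% of all genes, with a median of 0.61. Jam2, a junctional adhesion molecule, averaged 885 against 305 CPM. Cdh5, the cadherin of endothelial junctions, held 682, 761, 524 and 696 CPM against 297, 297, 232 and 303 CPM. Ocln, occludin of tight junctions, was the 1 lower, at 18.6 against 51.6 CPM. Of 21 genes of caveolae and receptor-mediated uptake, 9 were called higher and 6 lower. Plvap, which forms the diaphragms of permeable vessels, stood at 132, 157, 152 and 172 CPM in members and 58.8, 42.4, 108 and 98.1 CPM in the others (log2 difference 1.03). It was thus not lower in the cells with barrier transporters, and at equal depth a median of 23.3% of them had a UMI of it, against 10.3% of other endothelial cells. Without thinning the shares were 36.4% and 9.70%, against 0.11% in neurons.

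Immune genes also differed, where 13.7% of all genes were called higher in members and 16.1% lower. Of 32 interferon-response genes, 26 were called higher and 0 lower, with a median of 0.90, and Ifit3 averaged 720 against 179 CPM. For class I antigen presentation 14 of 17 were called higher, with B2m, the shared light chain, at 11328 against 6193 CPM. All 5 tested genes of class II presentation, which macrophages express, were called lower, with a median of -4.20. Of 16 leukocyte adhesion genes 11 were called higher and 3 lower. Among the named genes with the largest differences were Gpihbp1, which binds lipoprotein lipase to capillaries (55.6 against 4.08 CPM), Lcn2 (516 against 63.6 CPM), Esm1, a secreted proteoglycan of sprouting vessels (596 against 86.1 CPM), and Prom1 (1561 against 223 CPM). The lowest in members were Fabp4, a fatty acid binding protein (1.29 against 252 CPM), the macrophage genes Lyz2 (12.4 against 579 CPM) and C1qc, and Dlk1 (5.84 against 255 CPM).

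Markers of other cells moved with this comparison. In members and other endothelial cells, smooth muscle markers summed to 534 to 854 and 3131 to 7160 CPM, macrophage markers to 20.9 to 72.4 and 312 to 2378 CPM, and Schwann cell markers to 335 to 1147 and 1361 to 2862 CPM. The comparison was therefore repeated without cells in which those markers, with fibroblast and erythrocyte ones, held 20 or more of 10,000 UMIs. Of the 1189 genes higher in members, 453 were then still called higher (38.1%), and of the 1404 lower, 484 were still called lower (34.5%). The barrier carriers kept large differences, with log2 values of 2.12 for Abcb1a, 1.74 for Slc2a1, 2.26 for Slc39a8, 1.93 for Mfsd2a, 2.00 for Apcdd1 and 1.99 for Lef1. The differences of general vessel genes shrank, to 0.34 for Cdh5 and -0.07 for Plvap. The interferon list then had 11 of 33 called higher and the class I list 5 of 17, where 558 of 7515 genes (7.43%) were called higher and 634 (8.44%) lower in all. Satellite glia markers, which were not used to remove cells, were higher in members before the removal, at 3432 to 3630 against 2202 to 2870 CPM. Glul made up 72.6% and 61.4% of those sums.

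Members were not uniform. Clustering them alone, without the 12 rule genes, gave 8 sub-clusters. The genes that lead a sub-cluster defined it and are given as a description with no test, in CPM over the cells of all libraries. Sub-cluster 4 (497 cells) was tip-cell-like: among its leading genes were Apln, Esm1 and Angpt2, genes of sprouting vessels, beside Chodl, Col13a1 and the arterial marker Cxcl12. Its arterial markers also summed highest, to 3564 CPM, but Gja4 (67.3 CPM) and Vegfc (13.5 CPM) of that list were higher elsewhere. Gja4 held 381 CPM in sub-cluster 2 and 341 CPM in sub-cluster 5, and Vegfc 124 and 88.1 CPM. Its Esm1 level was 1546 CPM, with 1651, 1257, 1697 and 1593 CPM in the 4 libraries, against 39.6 CPM in sub-cluster 6. Sub-cluster 6 (456 cells) was venous-like, led by the leukocyte adhesion genes Sele and Selp and the chemokine-binding receptor Ackr1, at 326, 1524 and 497 CPM. UMIs of these were found in 21.7%, 60.1% and 46.7% of its cells. Venous markers summed highest there, to 3964 CPM, but Nr2f2 (191 CPM) and Icam1 (445 CPM) of that list were higher elsewhere. Sub-cluster 1 held 337 CPM of Nr2f2 and sub-cluster 2 held 729 CPM of Icam1. At resolution 1.0, Sele, Ackr1 and Selp led a sub-cluster of 178 cells. The Slco1c1 level of sub-cluster 6 was 19.4 CPM while its Abcg2 level was 2354 CPM, so these cells met the rule almost without Slco1c1. Sub-cluster 5 (371 cells) held the most Slc2a1, at 943 CPM, and the most Spock2, at 6680 CPM. It was led by Tpd52l1, Entrep1, Lgr6 and the arterial markers Gja4 and Vegfc, and was given no cell type name.

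**Figure D2:**
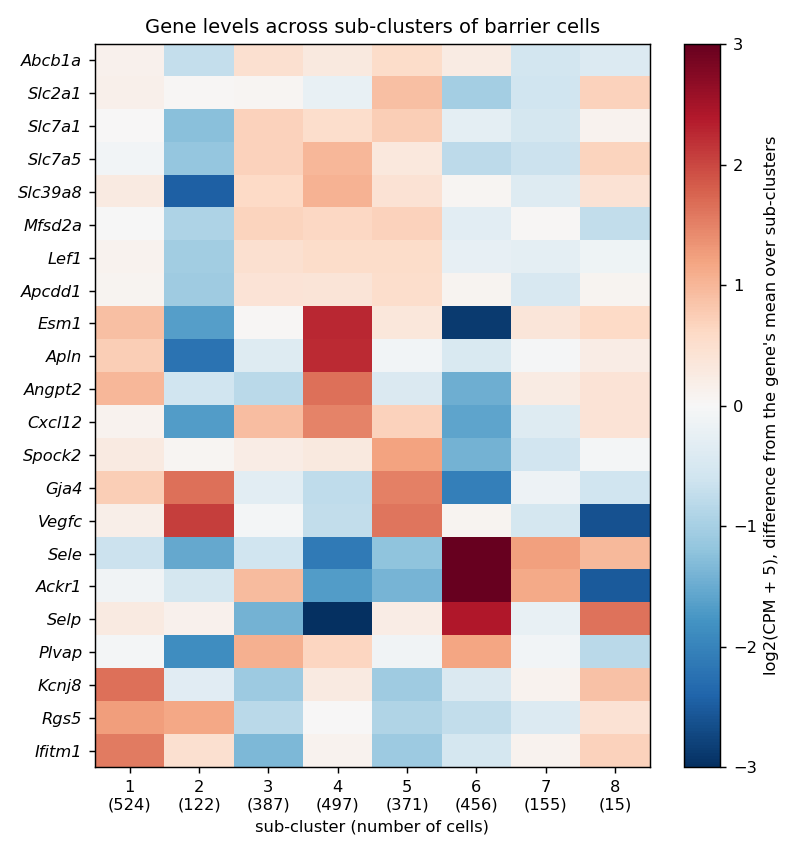
Level of 22 genes in the 8 sub-clusters of members, as log2(CPM + 5) minus the gene's mean over the sub-clusters, with colour ending at 3 in either direction. Esm1 and Apln were highest in sub-cluster 4, Slc2a1 and Spock2 in sub-cluster 5, and Sele, Ackr1 and Selp in sub-cluster 6.

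The remaining sub-clusters were led by other genes. Sub-cluster 1 (524 cells) was led by Kcne4, the pericyte channel gene Kcnj8 and Adra2a, with 468 CPM of the pericyte gene Rgs5. Sub-cluster 3 (387 cells) had the lowest depth, a median of 1557 UMIs, and the long neuronal genes Csmd1 and Grik1 and the sodium channel gene Scn9a among its leading genes. Sub-cluster 2 (122 cells) was led by smooth muscle and fibroblast genes (Myh11, Acta2, Apod), sub-cluster 7 (155 cells) by glial genes (Plekhb1, Ttyh1 and Fabp7 among them), and sub-cluster 8 (15 cells) by the haemoglobin genes Hba-a1 and Hbb. Cells marked as doublets made up 44.5% of sub-cluster 7 and 46.7% of sub-cluster 8, against 1.64% of sub-cluster 2. In Sham 1, Sham 2 and CPIP 1 the marked cells were the top 5% of doublet scores, a set cutoff. All 8 held barrier genes: Abcb1a ran from 273 CPM in sub-cluster 2 to 668 CPM in sub-cluster 5, and Apcdd1 from 501 to 1508 CPM in the same sub-clusters. Plvap was highest in the venous-like sub-cluster, at 240 CPM, and 95.5 CPM in sub-cluster 5, where Abcb1a, Slco1c1 and Slc2a1 were highest. The other sub-clusters did not all follow this contrast. Sub-cluster 3 held 219 CPM of Plvap beside 639 CPM of Abcb1a, and sub-cluster 2 held 24.8 CPM beside the lowest Abcb1a.

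**Figure D3:**
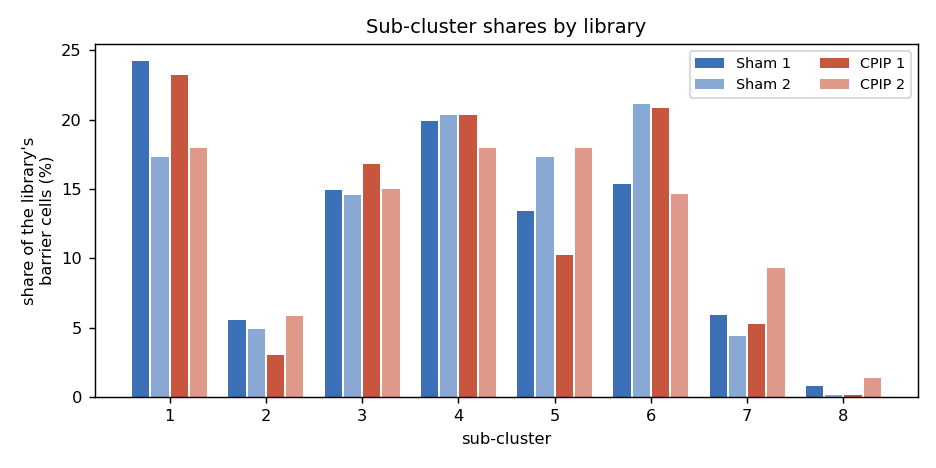
Share of each library's members (%) in each of the 8 sub-clusters, 1 bar per library. The groups overlapped in 7 sub-clusters; sub-cluster 3 held 14.9% and 14.6% in Sham and at most 16.8% in CPIP, with CPIP 2 just above Sham 1.

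Shares were compared between the groups with two-sided exact permutation tests, in which 4 libraries cannot give a p below 0.33. Of the endothelial cells, members made up 73.0% and 75.4% in the Sham libraries and 75.6% and 76.8% in the CPIP libraries. The means were 74.2% ± 1.72 and 76.2% ± 0.838 (SD, n = 2 each, exact permutation p = 0.33). With every endothelial cell thinned to 2000 UMIs the shares overlapped, at 79.7% and 86.7% in Sham and 87.1% and 81.8% in CPIP. Of all retained cells, members were 5.87% and 5.87% in Sham and 5.13% and 4.85% in CPIP, again at the smallest p (exact permutation, 0.33). A change in the share could thus not be tested at a useful level. Of the sub-clusters, sub-cluster 3 alone had groups that did not overlap (exact permutation p = 0.33, 1 after adjustment over 8). Sub-cluster 7, led by glial genes, was highest in CPIP 2, at 9.31% against 4.40% to 5.87% in the other libraries.

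The barrier genes showed no call between CPIP and Sham within members. Of 9772 genes tested with edgeR's quasi-likelihood test on the summed counts, 1 was called at an adjusted p under 0.05 (0.0102%), and 465 had an unadjusted p under 0.05. Abcb1a stood at 531 and 553 CPM in Sham and 504 and 472 CPM in CPIP (log2 fold change -0.15, SE 0.10). Slc2a1 stood at 473 and 501 against 389 and 659 CPM (0.11, SE 0.20), with CPIP 1 lowest and CPIP 2 highest. Slc7a5 stood at 148 and 156 against 148 and 153 CPM (-0.01, SE 0.11). Apcdd1 stood at 1035 and 1414 against 1041 and 1115 CPM, and Cdh5 at 630 and 705 against 483 and 649 CPM. The count of calls rested on the libraries used: it was 0 without the low-count filter, 6 without Sham 2, 73 without CPIP 2 and 319 without CPIP 1.

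None of the 25 pathway and 16 marker lists had a called member. Where the mean reached 30 CPM, both CPIP libraries were above both Sham libraries for 765 of 4292 genes (17.8%) and below for 722 (16.8%). Against that background the barrier lists held 1 higher and 2 lower of 13 uptake genes, 0 and 1 of 4 efflux genes, 2 and 1 of 12 junction genes, and 1 and 4 of 16 Wnt genes. For Notch signalling 1 of 11 was higher and 4 lower, among them the target genes Hes1 (391 and 354 against 312 and 312 CPM) and Hey1 (509 and 491 against 443 and 467 CPM). Sox17, an endothelial transcription factor, stood at 430 and 430 against 354 and 386 CPM (-0.22, SE 0.10). None of these passed the test.

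The 1 called gene was Rpl10a-ps9, named as a pseudogene copy of the ribosomal protein gene Rpl10a. It stood at 2.23 and 0.729 CPM in Sham and 40.4 and 62.9 CPM in CPIP, from 6, 2, 103 and 151 UMIs (log2 fold change 5.08, SE 0.41, edgeR adjusted p = 0.00398). The other 3 cell sets compared showed the same contrast: without the scaling factor, neurons held 0.723, 0.718, 22.1 and 34.7 CPM, other endothelial cells 1.61, 0, 25.5 and 57.1 CPM, and the remaining cells 0.599, 0.541, 17.1 and 31.0 CPM. The parent gene Rpl10a held 505, 512, 469 and 382 CPM in members. Reads of near-identical copies may have been split between the features, so the level of the copy is uncertain. Whether the libraries of the groups differed in annotation or processing was not tested. Rpl17, a ribosomal protein gene that missed the test, likewise stood higher in CPIP in members (765 and 1016 against 1694 and 1271 CPM, log2 fold change 0.73, edgeR adjusted p = 0.836) and in neurons (309 and 433 against 699 and 548 CPM), as in the other 2 cell sets.

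**Figure D4:**
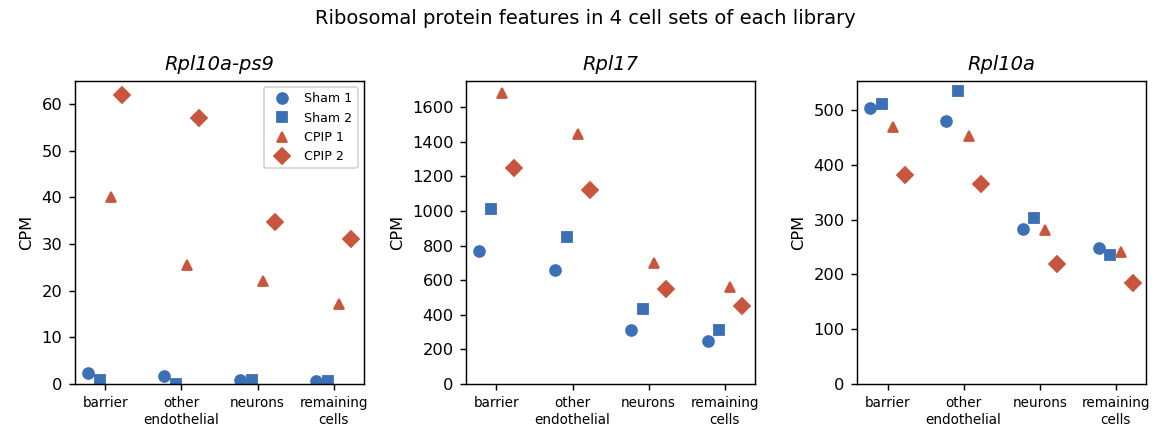
CPM of Rpl10a-ps9, Rpl17 and Rpl10a in members, other endothelial cells, neurons and the remaining cells, 1 point per library. The copy Rpl10a-ps9 was at most 2.24 CPM in the Sham libraries and between 17.1 and 61.9 CPM in the CPIP libraries, in each of the 4 cell sets.

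The genes nearest to the test among those at 30 CPM or more are given with their values, since each missed it. Several were sterol genes. Msmo1, an enzyme of cholesterol synthesis, held 62.8 and 52.2 CPM in Sham and 104 and 102 CPM in CPIP (log2 fold change 0.84, SE 0.13, edgeR adjusted p = 0.506). Sqle, squalene epoxidase, held 48.7 and 40.8 against 69.8 and 83.3 CPM, and Cyp51, a sterol demethylase, 177 and 142 against 238 and 238 CPM. Msmo1 was also higher in other endothelial cells (91.8 and 88.4 against 113 and 143 plain CPM) and neurons (277 and 253 against 323 and 315). The remaining cells held 1087 and 1044 against 1317 and 1152 plain CPM of it. Sqle overlapped in other endothelial cells and neurons, and was higher in CPIP in the remaining cells (821 and 827 against 901 and 853 plain CPM). Cyp51 was higher in CPIP in other endothelial cells (243 and 241 against 298 and 270) and neurons (657 and 658 against 665 and 673). In the remaining cells Cyp51 was slightly lower in CPIP. In the list of lipid uptake and metabolism 11 of 18 genes had both CPIP libraries above both Sham libraries and 0 below, with a median of 0.39. Of all genes, 17.8% were above and 16.8% below. Without sub-clusters 2, 7 and 8 the list had 3 of 15 above and 1 below, with a median of -0.01. There 14.6% of all genes were above and 19.6% below. Summed over 23 sterol genes, a list drawn up after the values were seen, the level was 6502 CPM in sub-cluster 7 and 728 to 1179 CPM in the other sub-clusters, and 13552 CPM in the retained cells outside endothelium and neurons. At 30 CPM or more, 11 of 11 of these genes were above in all members, 4 of 10 without sub-clusters 2, 7 and 8, and 7 of 10 in sub-clusters 4 to 6, where 15.2%, 14.6% and 15.3% of all genes were. Leaving out CPIP 1 gave 4 called genes of this list, and leaving out CPIP 2 gave 3. Within sub-cluster 7 the sum was 5468 and 4839 CPM in Sham and 9203 and 6403 CPM in CPIP, and CPIP 1, with 5.29% of its members in that sub-cluster, was inside the Sham range of 4.40% to 5.87%. What part sub-cluster 7 has in the sterol values was not tested. All members held 1256 and 1117 CPM in Sham and 1580 and 1540 CPM in CPIP. Without sub-clusters 2, 7 and 8 the sums were 836 and 836 against 936 and 884 CPM, and the log2 fold changes fell to 0.50 for Msmo1, 0.43 for Sqle and -0.07 for Cyp51. Satellite glia markers went from a median log2 fold change of 0.36 to -0.08, while their sum, led by Glul, was lower in CPIP in all members, at 3614 and 3630 against 3432 and 3525 CPM. Fbln2 and Sfrp5, which led sub-cluster 7, went from 0.95 to 0.21 and from 0.70 to -0.53, and Elovl2, a fatty acid elongase, and Col5a3, a collagen chain, from 0.94 to 0.63 and from 0.73 to 0.21.

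**Figure D5:**
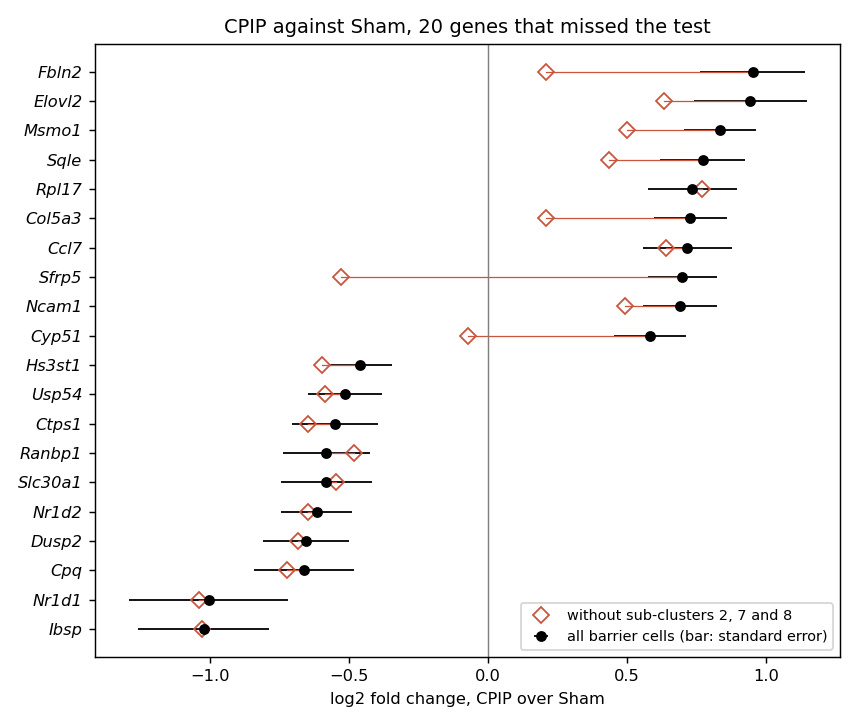
Log2 fold change, CPIP over Sham, of the 20 genes nearest to the test that missed it, in all members (filled, bar: standard error) and without sub-clusters 2, 7 and 8 (open). Sfrp5 and Cyp51 changed sign, and Nr1d1, Nr1d2, Ibsp and Ccl7 moved by less than 0.1.

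Sele, the adhesion molecule E-selectin, held 45.4 and 42.3 CPM in Sham and 148 and 65.0 CPM in CPIP (1.29, SE 0.31, edgeR adjusted p = 0.878; 1.28 without sub-clusters 2, 7 and 8). Within the venous-like sub-cluster its level was 270 and 156 CPM in Sham and 576 and 291 CPM in CPIP, so that CPIP 1 stood highest in both views. Other endothelial cells also held more Sele in CPIP, at 17.7 and 2.68 against 113 and 85.6 plain CPM, from 11, 1, 40 and 27 UMIs. The chemokine genes Ccl7 (60.6 and 51.4 against 104 and 79.5 CPM) and Cxcl12 (614 and 588 against 796 and 738 CPM) and the adhesion gene Icam1 (351 and 337 against 408 and 403 CPM) had no overlap between the groups. Ccl7 was also higher in CPIP without overlap in other endothelial cells, neurons and the remaining cells. Of all 14 leukocyte adhesion genes at 30 CPM or more, Sele and Icam1 included, 4 were higher in both CPIP libraries and 2 lower, beside the 17.8% and 16.8% of all genes. Vcam1, another adhesion gene, was lower without overlap, at 55.5 and 64.6 plain CPM in Sham against 43.2 and 39.8 in CPIP. Selp overlapped, at 475 and 652 against 497 and 386 CPM.

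Of 24 interferon-response genes at 30 CPM or more, 10 were higher in both CPIP libraries and 3 lower, with a median of 0.19. Of all genes at that level, 17.8% were higher and 16.8% lower. Summed over the list, the groups overlapped, at 6363 and 6064.5 plain CPM in Sham and 6151 and 7432 in CPIP, with CPIP 2 highest. Igtp, an interferon-induced GTPase, held 810 and 857 against 944 and 1057 CPM, and Ifitm3, a membrane protein that restricts viral entry, 792 and 785 against 913 and 1021 CPM. Ifit3 overlapped, at 672 and 619 against 525 and 855 CPM. Over all 35 tested members 24 had a positive fold change, with a median of 0.13 against 0.01 for all genes, and none was called. Immediate early genes, which dissociation is known to induce, had 0 of 32 higher and 9 lower, beside the same 17.8% and 16.8%, with a median of -0.08. Dusp2, a phosphatase of this list, held 149 and 174 CPM in Sham and 87.4 and 117 CPM in CPIP.

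Among genes lower in CPIP, Nr1d1 and Nr1d2, the repressors of the circadian clock, held 51.3 and 31.0 against 16.1 and 24.99 CPM and 85.5 and 78.8 against 51.8 and 55.4 CPM. Of 14 clock genes tested, a list drawn up after these values were seen, these were the 2 without overlap, and the median log2 fold change was -0.08. Bmal1, the clock activator, overlapped, at 62.5 and 71.8 against 89.8 and 66.6 CPM. The Nr1d1 contrast was not particular to members: neurons held 11.5 and 9.88 plain CPM in Sham against 7.97 and 9.64 in CPIP. Other endothelial cells held 24.2 and 21.4 against 14.2 and 3.17, and the remaining cells 24.3 and 19.3 against 8.76 and 11.9. Nr1d2 was lower in the remaining cells (92.6 and 75.5 against 68.9 and 63.4) and overlapped in neurons and other endothelial cells. The hour of tissue collection is not in the labels used here. Ibsp, a secreted sialoprotein among the leading genes of sub-cluster 5, held 145 and 204 against 108 and 62.9 CPM (-1.02, SE 0.24, edgeR adjusted p = 0.841). It was also lower in other endothelial cells, at 75.7 and 64.3 against 17.0 and 31.7 plain CPM.

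Whether the CPIP contrast differed between members and other endothelial cells was tested as an interaction. Of 9886 genes, 19 were called in edgeR's test (0.192%), and none of the 16 that were also tested in members alone was called there. Selp, P-selectin, stood at 519 and 712 against 542 and 415 CPM in members and at 82.0 and 90.2 against 177 and 247 CPM in the others (difference in log2 fold change -1.63, SE 0.28, edgeR adjusted p = 0.0013). Vwf, von Willebrand factor, stood at 67.4 and 104 against 64.1 and 96.6 CPM in members and at 70.7 and 110 against 197 and 235 CPM in the others. Col15a1, a basement membrane collagen, stood at 332 and 436 against 428 and 337 CPM in members and at 91.6 and 117 against 233 and 215 CPM in the others. For these 3 vessel genes the members' groups overlapped and those of the other cells did not. The calls were lost in part: that of Selp with DESeq2 and without CPIP 2 (adjusted p = 0.261, edgeR), that of Vwf with DESeq2, without CPIP 1 (0.104), with members by UMIs per 10,000 and without cells high in other markers (0.22), and Col15a1 was called in 5 of 11 alternatives. With DESeq2 the interaction gave 1 call, and without Sham 2 edgeR gave 57.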

How the data were processed

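The files deposited hold UMI counts, 1 per feature and barcode, of BD Rhapsody whole-transcriptome libraries, per the labels' protocols and the file headers, and were not normalized; all were whole numbers, and no barcode held under 500 UMIs. The aligner, genome build, annotation and cell calling were not given in the sources used here. All 4 libraries listed 25629 features and held 60885664 to 64550637 UMIs each.

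Barcodes with at least 200 genes and at most 25% Mt- UMIs were retained. Counts of the members were summed per library, since pools and not cells are replicates, and compared with edgeR 4.0.16 (R 4.3.3; quasi-likelihood test, TMM, default low-count filter, Benjamini-Hochberg adjustment). The comparison with other endothelial cells had the library as a block, and the difference in the CPIP contrast was tested as an interaction in the same 8 sums. Rule genes were left out of the calls. Fold changes are log2 with the standard error of the fit. Levels by sub-cluster and in neurons are plain CPM. The standard errors were derived from the quasi-likelihood F statistic, which takes in the spread between libraries.

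Members were clustered with scanpy 1.11.5 and igraph 0.11.9 (1000 variable genes, 20 components, 15 neighbours, Leiden resolution 0.5). Doublets were kept. Scrublet marked 1, 4, 2 and 278 retained cells. Where it marked under 0.5%, the top 5% of scores were marked instead. These marks gave the doublet shares of the sub-clusters and the alternative without doublets. Thinning drew 2000 UMIs per cell.

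The members and the 25 pathway and 16 marker lists were chosen with earlier results of these data known. Named genes were, between the groups, the 10 largest changes each way among called genes that averaged 30 CPM or more without overlap, filled up by smallest p; between the cell sets, the 15 largest and 10 lowest called differences at 50 CPM or more; all called interactions but 1, which is not reported here; and, from each list, the 4 genes with the highest level, called members and the one with the smallest p. Alternatives were DESeq2 1.42.0, no low-count filter, each library left out, no doublets, a depth band, other member and mitochondrial limits and a replicate block. Removal of sub-clusters or of cells high in markers of other cells was added after the data had been seen. The fits were tested on simulated data.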

Additional observations from a re-analysis of the deposited data

Results flagged for a closer look

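Of the 19 genes whose CPIP contrast differed between members and other endothelial cells, 18 are given with the difference in log2 fold change, members minus others, from the edgeR interaction. None of the 16 that were also tested in members alone was called there; the 3 class II genes were not tested there. In the members, 3 vessel genes varied less between the groups than in the other cells: Selp (-1.635), Vwf (-1.368) and Col15a1 (-1.111). Their members' own log2 fold changes were -0.35, -0.08 and 0.00.

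Genes of class II antigen presentation, which macrophages express, had the largest positive differences, at 6.881 for RT1-Ba, 4.05 for RT1-Da and 3.488 for RT1-Db1. They were at most 16.5 CPM in members, and RT1-Ba stood at 169 and 63.4 CPM in Sham and 5.13 and 0 CPM in CPIP in the other endothelial cells. Macrophage markers in those cells summed to 312 and 480 CPM in Sham and 759 and 2378 CPM in CPIP. Without cells high in markers of other cells RT1-Da and RT1-Db1 were no longer called (edgeR adjusted p = 1 for both). Cd14, a receptor of macrophages, gave -2.005.

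Several of the remaining genes are known from mural or connective tissue cells. The differences were 2.06 for Gsn, 1.614 for Igfbp5, 1.567 for Plau, 1.27 for Sorbs2, 0.9033 for Tpm1, -3.681 for Apod and -4.471 for Myoc. Without cells high in markers of other cells, Gsn (-0.22), Plau (-0.915), Sorbs2 (-0.17), Tpm1 (-0.32) and Apod (0.032) changed sign and were not called. In the other endothelial cells Gsn stood at 873 and 195 CPM in Sham and 113 and 148 CPM in CPIP, with Sham 1 far above the rest, and Plau at 1325 and 410 against 333 and 145 CPM. Smooth muscle markers summed to 3131 to 7160 CPM there. Crabp2, a retinoic acid binding protein, gave 2.339, and the feature ENSRNOG00000063499, which has no symbol in the files, gave -3.715.

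The haemoglobin genes Hba-a1 (2.323) and Hbb (2.201) were highest in Sham 1 in other endothelial cells, and in CPIP 2 and Sham 1 in members. Hba-a1 stood at 998, 0, 5.13 and 136 CPM in other endothelial cells, and at 797, 150, 48.7 and 979 CPM in members. Without Sham 1 the differences of Hba-a1 and Hbb were -7.79 and -7.07.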

How the results depend on the processing

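Between CPIP and Sham in members, the 1 call became 0 without the low-count filter (554 genes at an unadjusted p under 0.05) and 0 with a replicate block (364 at that p). It was 1 to 319 with a library left out, where the lone library of a group is assumed to vary like the other group, and 1 in the other alternatives, DESeq2 included. Same-numbered libraries were not shown to be pairs: their deviations correlated at -0.21 over 4304 genes, and a crossed replicate block gave 4 calls. The replicate block left the interaction near its main count, at 22. Calls between members and other endothelial cells fell from 2593 to 1484 in cells of 2000 to 20000 UMIs and to 1192 without cells high in markers of other cells. The 25 genes named by size kept direction and call in all 291 combinations of gene and setting that were tested. Without cells high in markers of other cells, 17 of the 25 were tested. Interaction calls numbered 1 with DESeq2, 7 with members by UMIs per 10,000, 38 in the depth band, 8 without cells high in other markers and 21 to 57 with a library left out. The number of sub-clusters with groups that did not overlap, 1, was 0 at resolution 1.0, 2 without doublets and 2 to 7 with a library left out. Signs reversed between the groups for Sfrp5 (-0.53 without sub-clusters 2, 7 and 8, -0.59 in sub-clusters 4 to 6), Cyp51 (-0.071 and -0.20) and Col5a3 (-0.18 in sub-clusters 4 to 6). In the interaction they reversed without cells high in other markers for Gsn (-0.22), Plau (-0.915), Apod (0.032), Sorbs2 (-0.17) and Tpm1 (-0.32). Hba-a1 and Hbb went to -0.33 and -0.051 with DESeq2 and to -3.74 and -7.855 in the depth band, and spanned -7.79 to 3.21 and -7.07 to 2.86 with a library left out. Beyond fewer cells or samples, the cause was not tested. The smallest p of a share was 0.33 with 2 against 2 libraries, and other endothelial cells, with 315372 to 620818 UMIs per library, limit what can be seen at low levels.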

Other observations

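Sub-clusters of the members differed in how the 3 transporters of the rule were combined. Slco1c1 ran from 19.4 CPM in the venous-like sub-cluster to 557 CPM in sub-cluster 5, while Abcg2 stood at 2354 and 2710 CPM in the same sub-clusters and Slco1a4 at 1889 and 2379 CPM. The amino acid carrier Slc7a5 was highest in the tip-cell-like sub-cluster, at 281 CPM, and 78.4 CPM in the venous-like one. Slc38a5, a venous marker of brain vessels, was at most 2.36 CPM in the sub-clusters. These values describe the sub-clusters and were not tested.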
